A study of Mus musculus with 6 samples.

Results

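The genes described here encode the enzymes and regulators by which cells neutralise peroxides, superoxide and reactive iron: 37 genes out of the 41128 measured in mouse hematopoietic stem cells. They were chosen by name, as the peroxiredoxin, thioredoxin, glutathione, superoxide and Nrf2 pathway genes, and were matched to the table by Ensembl ID. All 37 were found, and all 37 passed the minimum of a mean of 1 RPM (reads scaled to a common library total), as did 13597 genes in all. Of the 6 libraries, 3 (YH250 1 to 3) came from C57BL mice given the small molecule YH250, which the submitters describe as an antagonist of p300 and catenin, in a subcutaneous dose of 2 mg per kg. The other 3 libraries (DMSO 1 to 3) came from C57BL mice given the vehicle DMSO. In both groups bone marrow was taken after 16 h and sorted for long-term repopulating stem cells, defined as Lin-Sca1+c-Kit+CD41-CD48-CD150+. Age, sex and the number of mice behind a library are not given in the sources used here, and nothing says that libraries came from separate animals. All p-values therefore measure the spread between libraries, which may be technical.

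Glutathione is a small thiol made by glutamate-cysteine ligase and glutathione synthetase. Glutathione peroxidases spend it on peroxides, glutathione reductase restores it with NADPH, and glutathione transferases attach it to reactive compounds. Thioredoxins and peroxiredoxins form a parallel route, in which peroxiredoxins reduce peroxides and thioredoxin, kept reduced by thioredoxin reductase, recharges them. Nrf2, encoded by Nfe2l2, is a transcription factor that Keap1 holds for degradation until the cell is oxidised. It then enters the nucleus and raises many of these genes through antioxidant response elements. Hematopoietic stem cells are known to lose function when reactive oxygen accumulates, which is why this defence has been studied in them.

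The antioxidant response element has a core that is commonly written TGACNNNGC. This core, read on either strand (TGACNNNGC or GCNNNGTCA), was searched in RefSeq promoter windows of GRCm38.p6 reaching from 250 bases before to 50 bases after a start site. Of the 37 genes, 33 had such a window, while Hmox1, Gclc, Gsr and Prdx6 had none and were not searched. The core lay in at least 1 window of 7 of those 33 genes (21.2%), namely Nfe2l2, Srxn1, Gclm, Mgst1, Txnrd1, Prdx1 and Sod1, and in 3781 of all 27025 genes with a window (14%). Counted by window, the shares were 13.7% of 51 and 12.4% of 32851. A match is a description of the letters and not a binding site. The 4 stretches below are shown because they stand upstream of 1 regulator and of 1 gene each from glutathione synthesis, the thioredoxin system and the peroxiredoxins; capitals mark the core, and each line reads 5′ to 3′ on the strand of the gene.
Nfe2l2, chr2:75704875-75704913, minus strand: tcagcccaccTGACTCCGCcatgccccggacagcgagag
Gclm, chr3:122245403-122245451, plus strand: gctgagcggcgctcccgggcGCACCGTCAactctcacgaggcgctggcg
Txnrd1, chr10:82859094-82859142, plus strand: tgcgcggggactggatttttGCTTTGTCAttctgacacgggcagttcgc
Prdx1, chr4:116685446-116685494, plus strand: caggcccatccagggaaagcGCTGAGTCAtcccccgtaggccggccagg
The core began 240 bases before the RefSeq start in Nfe2l2, 134 in Gclm and 133 in Prdx1. In Txnrd1 it began 92 bases before 1 of several RefSeq starts, and the windows of the others had no match. The values of these 4 genes are given with their role groups.

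The libraries are described first, because some of them stand apart. By the low values, 1 RPM stood for 23.99 to 31.19 reads in YH250 libraries and for 21.96 to 27.18 reads in DMSO libraries. Reads assigned to genes made up 93.6% and 95.9% of the scaling total in YH250 3 and DMSO 3, against 77.9% and 70.0% in YH250 1 and DMSO 1; the libraries numbered 2 had 84.9% and 75.6%. The first principal component set YH250 3 and DMSO 3 apart from the other 4 libraries, and the second set YH250 2 apart. Of 12 stem cell marker genes none was at 0 in all libraries, but their summed level was 809.7 RPM in YH250 3 and 896.8 RPM in DMSO 3, against 1528 to 1808 RPM in the other 4. Of 7 markers of multipotent and lymphoid-primed progenitors, with the immunoglobulin heavy chain gene Ighm leading, the sum was 16807 RPM in YH250 3 and 8034 RPM in DMSO 3, against 122.6 to 3931 RPM elsewhere. Of 8 B cell markers the sum was 809.7 and 615.6 RPM in the libraries numbered 3, against 64.05 to 288 RPM elsewhere. Of 10 endothelial and stromal markers the sum was 450.8 RPM in YH250 2, against 118.7 to 150 RPM in the other 5. Genes of the sort itself, as means of both treatments at numbers 1, 2 and 3, also differed. Cd48 had 11.7, 49.2 and 254.9 RPM, and Slamf1 (CD150) 33.5, 2.22 and 3.12 RPM. Ly6a (Sca1) had 101.3, 181.4 and 280.1 RPM, Kit 267.7, 212.6 and 171.1 RPM, and Itga2b (CD41) 40.6, 20.8 and 6.39 RPM. They are named after their values were seen, and surface protein was not measured here. The labels do not say what a replicate number stands for. In such bulk RNA, fewer cells of a type and less RNA per cell cannot be told apart.

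Glutathione peroxidase 1 and both ferritin chains dominated the defence set. Together Gpx1, Fth1 and Ftl1 held 61.1% of the summed RPM of the 37 genes. Per length, as RPM per kb of merged exons averaged over all 6 libraries, the order of levels was led by Gpx1, which reduces hydrogen peroxide with glutathione, at 1711 (range 1108 to 2329). The ferritin light chain Ftl1 followed at 1407 (1207 to 1686) and the heavy chain Fth1, which oxidises iron for storage, at 603 (415 to 722). Next came Prdx1 at 246, Txn1 at 212, Gstp1 at 188, Gpx4 at 174 and Prdx2 at 109, which completes the 8 genes above 100. The lowest were Nqo1 at 4.64, Hmox1 at 4.31, Txnrd2 at 3.22, Srxn1 at 2.74 and Gss at 2.14, among 12 genes below 10. Of the 36 neighbouring pairs in this order, only Ftl1 over Fth1, Fth1 over Prdx1 and Gpx4 over Prdx2 had ranges over libraries that did not overlap. Merged exons overstate the length of genes with several isoforms, so their per-length levels are low estimates.

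**Figure D1:**
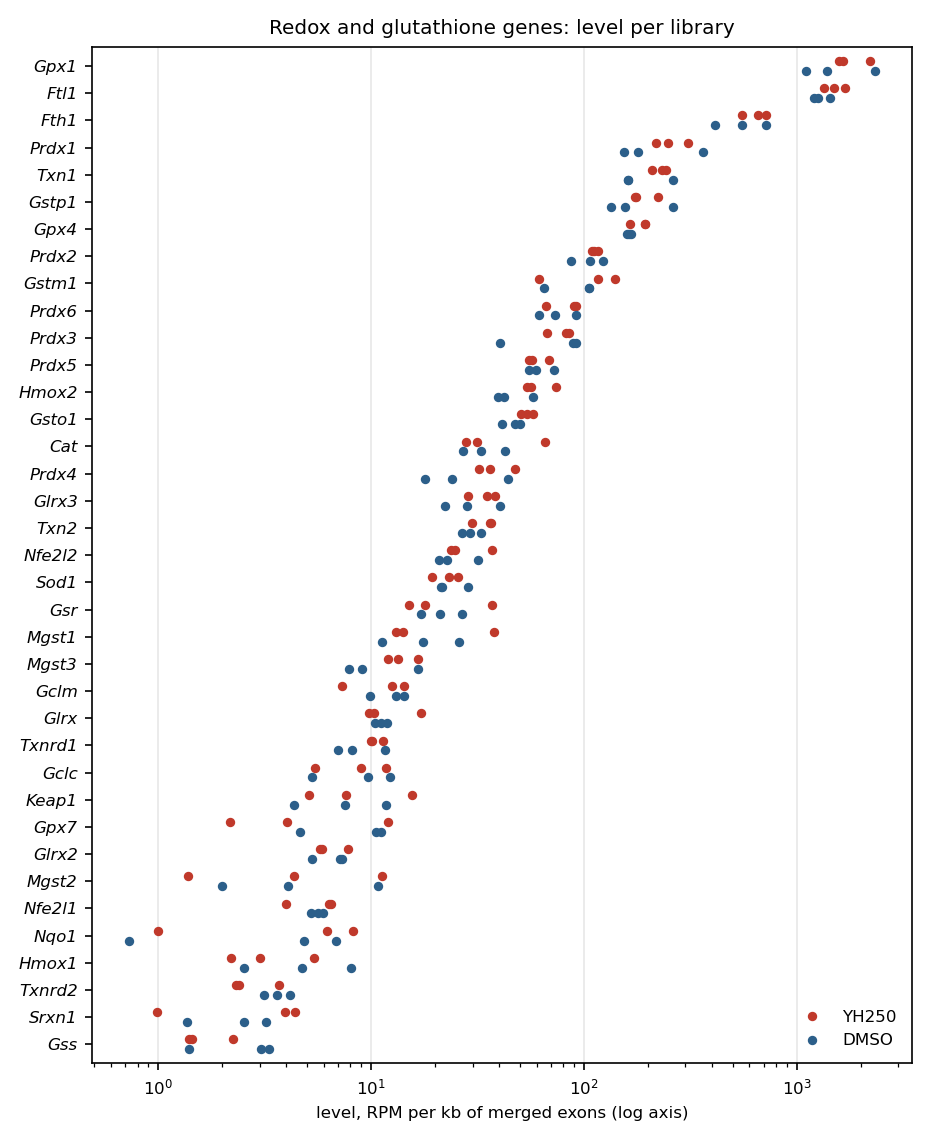
Level of each of the 37 genes in RPM per kb of merged exons, on a log axis, with 1 point per library (red YH250, 3 libraries; blue DMSO, 3 libraries). Gpx1, Ftl1 and Fth1 lie at 415 or higher in every library, and the 5 genes at the bottom average below 5.

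The defence genes took 1.356%, 1.356% and 1.223% of the reads in genes in YH250 1, 2 and 3, against 1.145%, 1.291% and 1.253% in DMSO 1, 2 and 3. The groups overlapped, since DMSO 2 and DMSO 3 lay above YH250 3.

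The first question of the design is whether YH250 changed these genes. None of the members passed an adjusted p of 0.05 for YH250 minus DMSO, and neither did any of the 13597 genes tested, a background of 0% (limma, Benjamini-Hochberg, smallest adjusted p 0.999). At an unadjusted p under 0.05 there were 0 members and 231 of all genes, 1.7%. The median log2 difference (YH250 minus DMSO, of RPM plus 1) was 0.17 over the members, 26 of 37 being higher on average in YH250, beside 0.02 over all genes, of which 7034 of 13597 were higher. Within the replicate numbers the members' median was 0.29 at number 1 and 0.15 at number 2 but -0.08 at number 3, beside 0.06, 0.06 and -0.06 over all genes. The number of members higher in YH250 was 27, 27 and 16 at numbers 1, 2 and 3. The standard errors of the members ran from 0.18 to 0.81 with 3 libraries a group. A difference has to be several standard errors to pass the test, so changes larger than these may also have been missed.

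**Figure D2:**
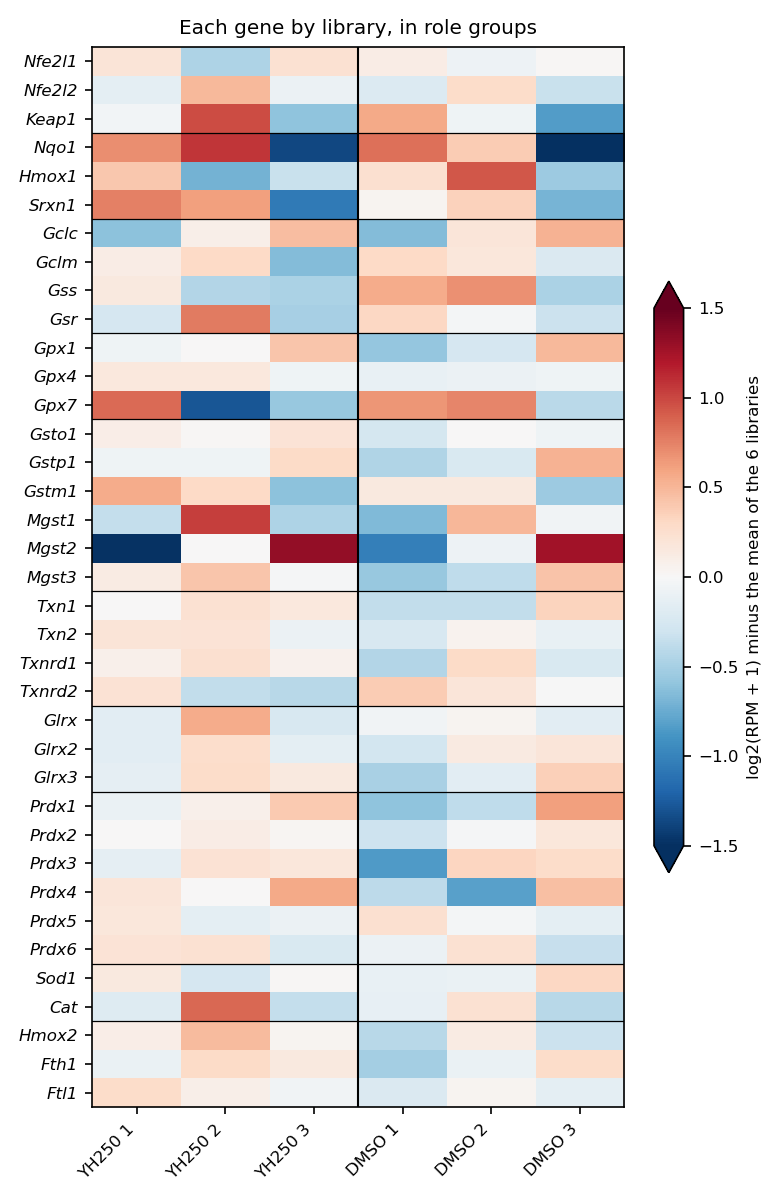
Log2(RPM + 1) of each gene minus its mean over the 6 libraries, in role groups separated by lines, with YH250 libraries left of the black line and DMSO libraries right of it. Colours saturate at 1.5; the strongest contrasts, in Mgst2 and Nqo1, run between libraries numbered 3 and the others in both treatments.

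Among the heme and iron genes, Hmox2, the constitutive heme oxygenase that breaks down heme, had the smallest unadjusted p of all members. It stood at 125.4, 163.3 and 120.5 RPM in YH250 1, 2 and 3, against 87.3, 127.8 and 93.6 RPM in DMSO 1, 2 and 3. YH250 was the higher library at every number, but DMSO 2 exceeded YH250 1 and YH250 3. The log2 difference was 0.41 ± 0.24 (SE), with an adjusted p of 0.999 (limma). Exons of Hmox2 overlap those of Cdip1 on the other strand, which averaged 25.5 RPM, and whether strand was used in counting is not stated. Ftl1 had 2259, 1998 and 1804 RPM in YH250 libraries, against 1618, 1934 and 1697 RPM in DMSO libraries, a log2 difference of 0.21 ± 0.18. Fth1 had 1916, 2503 and 2275 RPM in YH250, against 1440, 1926 and 2497 RPM in DMSO, where DMSO 3 lay above YH250 1 and YH250 3. All 3 genes of this group had a higher mean in YH250, none past the test. The inducible heme oxygenase Hmox1, a classical Nrf2 target, averaged 6.17 ± 2.91 RPM in YH250 and 8.93 ± 4.85 RPM in DMSO (SD, n = 3 each).

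Of the 6 peroxiredoxins, 5 had a higher mean in YH250 and none passed the test. Prdx4, the peroxiredoxin of the endoplasmic reticulum, had 76.5, 67.4 and 100.1 RPM in YH250 1, 2 and 3, against 50.8, 37.6 and 92.3 RPM in DMSO 1, 2 and 3. It was higher in YH250 at each number, while DMSO 3 lay above YH250 1 and YH250 2; the log2 difference was 0.51 ± 0.34 (SE). Prdx1, a cytosolic peroxiredoxin and the highest of the 6 per length, had 667.1, 758.2 and 940.2 RPM in YH250, against 470.6, 548.9 and 1101 RPM in DMSO. Its highest and its lowest value were both in DMSO libraries. Prdx2, also cytosolic, averaged 343 ± 12.6 RPM in YH250 and 322 ± 53.8 RPM in DMSO. Exons of Prdx2 overlap Junb (590 RPM) and Rnaseh2a on the other strand. The mitochondrial Prdx3 averaged 116 ± 14.8 and 109 ± 42.6 RPM in YH250 and DMSO. Prdx6, which uses glutathione rather than thioredoxin, averaged 397 ± 67.8 and 363 ± 72.9 RPM. Prdx5, whose exons overlap Trmt112 on the other strand, averaged 129 ± 15.5 RPM in YH250 and 133 ± 19.1 RPM in DMSO.

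In the thioredoxin system 3 of 4 genes had a higher mean in YH250. Cytosolic thioredoxin, Txn1, stood at 219.4, 255.4 and 244.2 RPM in YH250, against 169.2, 168.9 and 276.4 RPM in DMSO. DMSO 3 was the highest library of all and DMSO 1 and 2 the lowest, and the log2 difference was 0.26 ± 0.25. Txnrd2, the mitochondrial thioredoxin reductase, was the only member lower in YH250 at all 3 numbers, with 16.3, 10.5 and 10.2 RPM in YH250, against 18.3, 15.9 and 13.8 RPM in DMSO. Its groups overlapped, and the log2 difference was -0.37 ± 0.34. Mitochondrial Txn2 averaged 144 ± 16.0 RPM in YH250 and 125 ± 13.0 RPM in DMSO, and the cytosolic reductase Txnrd1 averaged 74.5 ± 5.38 and 63.5 ± 17.3 RPM.

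In the glutaredoxins, Glrx3 had the highest level per length. It had 143.7, 191.8 and 175.8 RPM in YH250, against 112.2, 142.2 and 202.5 RPM in DMSO. The highest and the lowest library were again both DMSO. Glrx averaged 68.4 ± 22.4 RPM in YH250 and 61.3 ± 4.25 RPM in DMSO, and mitochondrial Glrx2 averaged 56.8 ± 10.04 and 57.9 ± 9.86 RPM.

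For glutathione synthesis and recycling, 1 of 4 genes had a higher mean in YH250. Gss, glutathione synthetase, had 13.3, 8.51 and 8.30 RPM in YH250, against 17.96, 19.65 and 8.24 RPM in DMSO. Its log2 difference of -0.51 ± 0.42 was -0.29 without DMSO 2 and -0.87 without DMSO 3. Without both libraries of number 2 it was -0.20. DMSO 1 and DMSO 2 were above all YH250 libraries, and DMSO 3 was below them. Gss overlaps exons of Acss2 on the other strand, at 22.4 RPM. Gclm, the modifier subunit of glutamate-cysteine ligase, had 78.8, 90.2 and 46.2 RPM in YH250, against 89.9, 82.0 and 62.4 RPM in DMSO, so that its libraries overlapped. Its catalytic partner Gclc averaged 33.0 ± 11.98 RPM in YH250 and 34.2 ± 13.3 RPM in DMSO. Gsr, glutathione reductase, averaged 64.5 ± 33.2 and 59.6 ± 13.2 RPM, with YH250 2 highest at 102.5 RPM.

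Among the glutathione transferases, Gsto1, an omega-class transferase that also reduces dehydroascorbate, was the only member whose groups did not overlap. It had 108.8, 102.1 and 117 RPM in YH250, against 83.7, 101.9 and 96.4 RPM in DMSO. The gap between YH250 2 and DMSO 2 was under 1 RPM, and the log2 difference was 0.22 ± 0.21. Such separation in either direction was seen in 1 of 37 members (2.7%) and in 7.48% of all genes tested. Gstp1, the pi-class transferase, had the highest level per length of the 6, with 272.3, 270.3 and 346.8 RPM in YH250, against 207.1, 242.4 and 406.9 RPM in DMSO. It has a close relative, Gstp2, which was listed at 0.17 to 2.62 RPM, and reads may be split between them. The 3 microsomal transferases averaged 43.7 ± 28.2 RPM (Mgst1), 20.97 ± 18.7 RPM (Mgst2) and 15.3 ± 2.58 RPM (Mgst3) in YH250, and 36.7 ± 14.7, 20.8 ± 17.0 and 12.3 ± 5.201 RPM in DMSO.

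Of the glutathione peroxidases, Gpx1 had 2275, 2388 and 3178 RPM in YH250, against 1596, 1999 and 3356 RPM in DMSO, with both extremes in DMSO libraries. Gpx4, the peroxidase that reduces lipid peroxides in membranes, was the steadiest member, its highest library being 1.21 times its lowest. It averaged 318 ± 28.2 RPM in YH250 and 281 ± 4.82 RPM in DMSO. Gpx7, a peroxidase of the secretory pathway, had 15.6, 2.80 and 5.21 RPM in YH250, against 13.6, 14.4 and 5.97 RPM in DMSO. Its log2 difference of -0.67 ± 0.60 rested on number 2, and it was 0.007 without the 2 libraries of that number.

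In the Nrf2 axis, Nfe2l2 had 90.3, 139.8 and 94.2 RPM in YH250, against 86.8, 121.4 and 79.1 RPM in DMSO. The library numbered 2 was the highest in each group, and YH250 lay above DMSO at each number with overlap between the groups. Keap1, the adaptor that targets Nrf2 for degradation, averaged 44.4 ± 25.9 RPM in YH250 and 37.1 ± 17.6 RPM in DMSO. Nfe2l1, a related factor that governs proteasome genes, averaged 30.5 ± 7.74 and 30.5 ± 2.05 RPM. None of the 3 Nrf2 target enzymes passed the test. Srxn1, sulfiredoxin, which repairs over-oxidised peroxiredoxins, had 12.4, 11.2 and 2.79 RPM in YH250, against 7.14, 9.01 and 3.87 RPM in DMSO. Nqo1, a quinone reductase, averaged 7.98 ± 5.79 RPM in YH250 and 6.42 ± 4.84 RPM in DMSO. Catalase, Cat, had 82.1, 172.4 and 73.1 RPM in YH250, against 86.2, 110.8 and 70.4 RPM in DMSO, again highest in the libraries numbered 2. Sod1, the cytosolic superoxide dismutase, averaged 90.4 ± 12.4 RPM in YH250 and 94.5 ± 16.5 RPM in DMSO.

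Some counts turned on the libraries chosen. Ftl1, Gsto1, Hmox2, Nfe2l2, Prdx4, Prdx6 and Txn2 were higher in YH250 at all 3 numbers, which is 7 of 37 members (18.9%) beside 16.1% of all genes; 1 member (2.7%) was lower at all 3, beside 15% of all genes. In a paired fit with the replicate number as a block, Hmox2 (0.41 ± 0.16) and Prdx4 (0.51 ± 0.20) reached an unadjusted p under 0.05, as did 7.44% of all genes, with an adjusted p of 0.66 for both. Without DMSO 3, Prdx1, Prdx4, Gpx1, Txn1 and Fth1 reached it, as did 4.49% of all genes. Of those 611 genes, 490 were higher in YH250. The members' log2 differences were 0.62, 0.86, 0.53, 0.50 and 0.41, with an adjusted p of 0.914. That fit had no number term and kept YH250 3 without its DMSO counterpart. All 5 members were higher in both libraries numbered 3 than in both numbered 1. Without both libraries numbered 3, Prdx1, Prdx4, Gpx1 and Txn1 reached an unadjusted p under 0.05, as did 3.13% of all genes. Their log2 differences were 0.48, 0.70, 0.38 and 0.48, with an adjusted p of 0.939. Other omissions made differences smaller: without DMSO 2, Prdx4 was at 0.23 and Txn1 at 0.14, and without DMSO 1, Txn1 was at 0.15 and Gsto1 at 0.14. Ftl1 was at 0.12 and Txnrd2 at -0.58 without YH250 1. The number of members with a higher mean in YH250 ran from 21 without YH250 2 to 28 without DMSO 2.

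**Figure D3:**
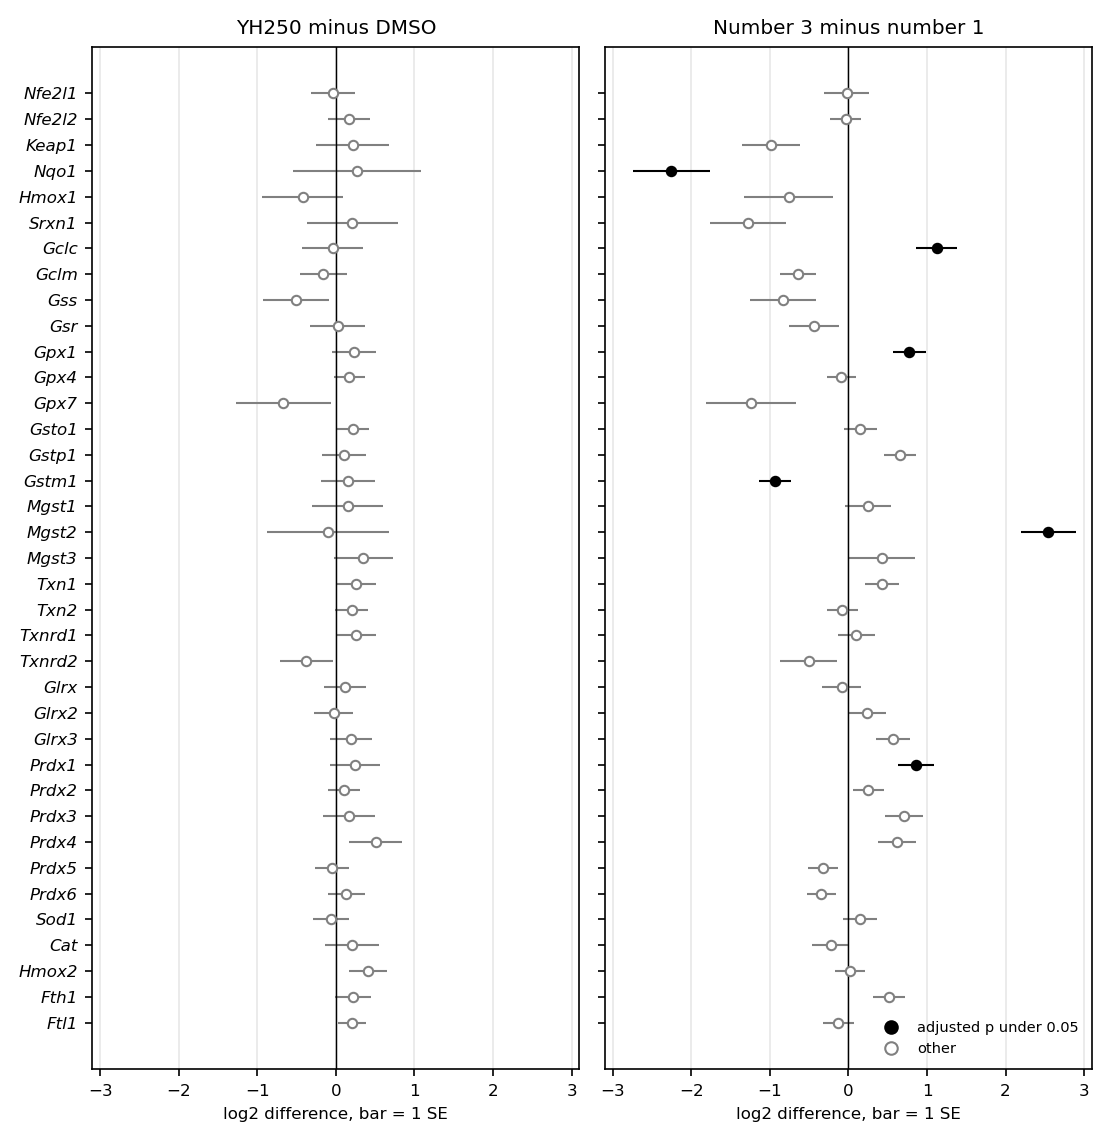
Log2 difference of each gene, in role order, for YH250 minus DMSO (left) and for replicate number 3 minus number 1 (right), with bars of 1 standard error; filled points have an adjusted p under 0.05 (limma over 13597 genes). The left panel has no filled point, and the right panel has 6.

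More members were called between replicate numbers than between treatments. Between numbers 3 and 1, with treatment as a second term and 2 libraries per number, 6 of the 37 genes passed an adjusted p of 0.05, that is 4 that rose and 2 that fell, beside 8.56% of all genes (1164 of 13597). Between numbers 3 and 2, 3 members passed, all lower in number 3, beside 6.31% of all genes. Between numbers 2 and 1 none of the members passed, beside 0.199% of all genes, and 7 members had an unadjusted p under 0.05, beside 14.3% of all genes. The members' median log2 difference for number 3 minus number 1 was -0.02, with 18 of 37 higher in number 3, beside 0.04 over all genes.

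Mgst2, a microsomal transferase that can also make leukotriene C4 (chromosome 3, 51660360 to 51682677, GRCm38), had the smallest adjusted p of the members. It had 41.7 RPM in YH250 3 and 40.0 RPM in DMSO 3, against 5.13 RPM in YH250 1 and 7.37 RPM in DMSO 1. The libraries numbered 2 lay between, at 16.1 and 15.1 RPM, and at every number the treatments were close. The log2 difference, number 3 minus number 1, was 2.54 ± 0.35 (SE, adjusted p = 0.00244, limma). The call remained in all 6 fits that left out 1 library and in all 8 other settings.

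Gstm1, a cytosolic mu-class transferase (chromosome 3, 108012255 to 108017973), moved the other way. It had 90.7 RPM in YH250 3 and 95.7 RPM in DMSO 3, against 205.7 RPM in YH250 1 and 155.3 RPM in DMSO 1. The log2 difference was -0.93 ± 0.20 (adjusted p = 0.0223). Against number 2, with 172.3 RPM in YH250 2 and 155.2 RPM in DMSO 2, it was -0.81 (adjusted p = 0.0474). The first call was lost without YH250 1 or YH250 3 and the second without any 1 library numbered 2 or 3, with adjusted p up to 0.177 and 0.218. Other mu-class genes lie in the same cluster, and reads shared among them may be split.

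Nqo1 (chromosome 8, 107388225 to 107403206) had the widest range of any member, its highest library being 11.2 times its lowest. It stood at 1.54 RPM in YH250 3 and 1.14 RPM in DMSO 3, against 9.65 RPM in YH250 1 and 10.6 RPM in DMSO 1, and 12.8 and 7.51 RPM in YH250 2 and DMSO 2. The low values rest on about 37 and 25 reads and the others on 204 to 319. The log2 difference was -2.26 ± 0.49 against number 1 (adjusted p = 0.0223) and -2.21 against number 2 (adjusted p = 0.0308). Leaving out any 1 library of numbers 1 and 3 ended the first call, with an adjusted p up to 0.3, and leaving out either library of number 3 ended the second, with an adjusted p up to 0.201.

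Gclc, the catalytic subunit of glutamate-cysteine ligase and the rate-limiting step of glutathione synthesis (chromosome 9, 77754535 to 77794485), had 44.5 RPM in YH250 3 and 46.3 RPM in DMSO 3, against 20.6 RPM in YH250 1 and 19.99 RPM in DMSO 1. The libraries numbered 2 stood between, at 33.9 and 36.3 RPM. The log2 difference was 1.12 ± 0.26 (adjusted p = 0.0288), and the call was lost without any 1 library of numbers 1 and 3, with an adjusted p up to 0.31. Its partner Gclm lay at 46.2 and 62.4 RPM in YH250 3 and DMSO 3, against 78.8 and 89.9 RPM in YH250 1 and DMSO 1, and did not pass (log2 -0.64 ± 0.23, adjusted p = 0.119).

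Prdx1 (chromosome 4, 116685544 to 116700822) had 940.2 RPM in YH250 3 and 1101 RPM in DMSO 3, against 667.1 RPM in YH250 1 and 470.6 RPM in DMSO 1, a log2 difference of 0.86 ± 0.22 (adjusted p = 0.0455). Gpx1 (chromosome 9, 108338903 to 108340343) had 3178 RPM in YH250 3 and 3356 RPM in DMSO 3, against 2275 RPM in YH250 1 and 1596 RPM in DMSO 1, a log2 difference of 0.78 ± 0.20 (adjusted p = 0.0465). Both calls sat close to the threshold. That of Prdx1 was lost without YH250 1, DMSO 1 or DMSO 3 and that of Gpx1 without YH250 1, YH250 2, DMSO 1 or DMSO 2, with adjusted p up to 0.437 and 0.611.

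Cat (chromosome 2, 103453849 to 103485160) passed against number 2 alone, with 73.1 RPM in YH250 3 and 70.4 RPM in DMSO 3, against 172.4 RPM in YH250 2 and 110.8 RPM in DMSO 2. The log2 difference was -0.94 ± 0.23 (adjusted p = 0.0454), and it was lost without YH250 2, YH250 3 or DMSO 3, with an adjusted p up to 0.201. Srxn1, at 2.79 and 3.87 RPM in the libraries numbered 3 against 12.4 and 7.14 RPM in those numbered 1, did not pass (log2 -1.28 ± 0.48, adjusted p = 0.139).

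**Figure D4:**
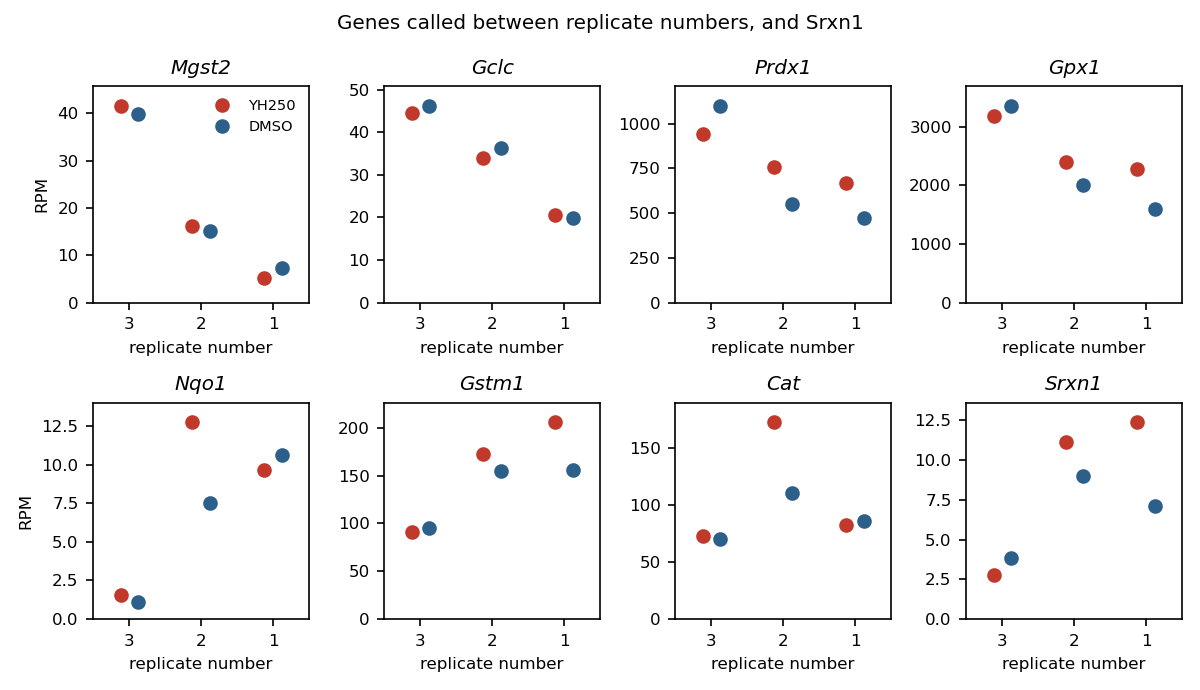
RPM of the 7 genes called between replicate numbers and of Srxn1, by replicate number, with 1 point per library (red YH250, blue DMSO) and axes from 0. In Mgst2 YH250 3 and DMSO 3 lie at 41.7 and 40.0 RPM, against 5.13 and 7.37 RPM in YH250 1 and DMSO 1; in Nqo1 the order is the reverse.

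Which genes were called, and the split of all calls by direction, changed with scaling. The libraries numbered 3 had more of their reads in genes, and the part of this in the changes was not tested. When each library was rescaled so that its genes summed to one fixed total, the median of all genes for number 3 minus number 1 shifted to -0.28. Called members were then 5, namely Gstm1, Nqo1, Gclm and Prdx6 lower and Mgst2 higher, beside 9.99% of all genes. The split of all calls was 761 higher and 403 lower as deposited, against 466 higher and 892 lower after rescaling. With quantile normalization 7 members passed, 2 higher and 5 lower, beside 9.58% of all genes, which divided into 642 higher and 661 lower. Median-of-ratios scaling, which divides each library by its median ratio to the gene averages, changed little. The same 6 members passed as in the deposited scaling, beside 1189 of 13597 genes, 745 higher and 444 lower. Mgst2 was higher and Nqo1 and Gstm1 lower under each scaling and by more than that shift, at 2.24, -2.61 and -1.29 with a fixed gene total. With a fixed gene total or quantile normalization, Prdx1 and Gpx1 no longer passed. Gclc passed with quantile normalization but not with a fixed gene total. Prdx1, Gpx1 and Gclc stayed higher in number 3 under both. With no minimum mean, Mgst2 alone passed between numbers 3 and 1, and none of the members between numbers 3 and 2. Without the trend and robust settings Mgst2 and Nqo1 alone passed between numbers 3 and 1, and none between numbers 3 and 2. With a pseudocount of 0.1, Prdx1 and Gpx1 were lost between numbers 3 and 1, and Cat and Gstm1 between numbers 3 and 2.

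Marker genes of cell identity also differed between numbers 3 and 1. The counts of genes that rose or fell are those with an adjusted p under 0.05 (limma), beside 8.56% of all genes. Of 12 stem cell markers, 9 fell and 1, Ly6a, rose, with a median log2 difference of -1.82. Of 7 tested markers of multipotent and lymphoid-primed progenitors 6 rose, as did 7 of 7 tested B cell markers, 3 of 8 T and NK cell markers and 3 of 4 tested markers of mast cells, basophils and eosinophils. Of 11 tested granulocyte and monocyte markers 2 rose, while 3 of 6 megakaryocyte markers, 2 of 7 tested erythroid markers and 1 of 9 tested endothelial and stromal markers fell. By direction alone, 1 of 12 stem cell and 2 of 7 erythroid markers were higher in number 3. For megakaryocyte and for endothelial and stromal markers it was 0 of 6 and 2 of 9. Higher as well were 10 of 11 granulocyte and monocyte markers and 8 of 8 T and NK cell markers. For the progenitor, B cell and mast cell groups it was 7 of 7, 7 of 7 and 3 of 4. The part of these cell markers in the members' differences was not tested.

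Beyond the 37 genes, 103 of 110 further genes of the pathway were tested, covering Nrf2 partners, NADPH supply, glutathione use, other thioredoxin-fold proteins, methionine sulfoxide repair, heme and iron, NADPH oxidase and selenoprotein synthesis. None passed for YH250 minus DMSO, and their median log2 difference was 0.03. The 6 with the smallest unadjusted p all had higher means in YH250. Msrb2, a mitochondrial methionine sulfoxide reductase, had 48.6, 42.3 and 38.5 RPM in YH250, against 34.5, 29.98 and 21.2 RPM in DMSO. Pstk, a kinase of selenocysteine synthesis, had 30.5, 33.3 and 24.7 RPM in YH250, against 12.9, 20.9 and 21.4 RPM in DMSO. Idh2, which makes mitochondrial NADPH, had 153.9, 176.3 and 168.7 RPM in YH250, against 104.8, 149.4 and 105.4 RPM in DMSO. The log2 differences of these 3 genes were 0.60 ± 0.27, 0.68 ± 0.30 and 0.49 ± 0.23 (adjusted p = 0.999 each). Cyba, a subunit of the superoxide-making NADPH oxidase, Chac2, which degrades glutathione, and Abcc4, an efflux pump, had log2 differences of 0.60 ± 0.28, 0.79 ± 0.39 and 0.60 ± 0.31. The groups did not overlap in 9 of the 103 genes (8.74%), beside the 7.48% of all genes. YH250 was above DMSO in Msrb2, Pstk, Idh2, Chac2, Abcc4 and Park7 and below it in Mafk, Nnt and Gstp2; Park7, Mafk, Nnt and Gstp2 are named after their values were seen.

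Between numbers 3 and 1, 18 of the 103 further genes passed, beside 8.56% of all genes, and 10 were higher and 8 lower in number 3. With a fixed gene total the split was 5 higher and 15 lower, and leaving out any 1 library gave 6 to 34 calls. Of 8 tested NADPH oxidase genes, Cybb, Ncf1, Ncf4 and Cyba were higher; Cyba did not pass with a fixed gene total, and without DMSO 3 only Cybb passed. Cybb, the catalytic subunit of the phagocyte oxidase, had 81.3 RPM in YH250 3 and 85.0 RPM in DMSO 3, against 1.86 RPM in YH250 1 and 4.95 RPM in DMSO 1, a log2 difference of 4.35 ± 0.42 (adjusted p = 0.000306). Ncf1, the organiser subunit of that oxidase, differed by 2.85 ± 0.39 (adjusted p = 0.00249). Txndc5, a disulfide isomerase of the endoplasmic reticulum, and Selenos, a selenoprotein of the same compartment, differed by 2.08 ± 0.27 and 1.28 ± 0.24. Nfe2, a relative of Nrf2 active in megakaryocytes and red cell precursors, had 88.1 and 80.1 RPM in YH250 3 and DMSO 3, against 241.2 and 247.6 RPM in YH250 1 and DMSO 1 (log2 -1.53 ± 0.19, adjusted p = 0.00124). Gstm2, a neighbour of Gstm1 in sequence, had 0.25 and 0.09 RPM in YH250 3 and DMSO 3, against 8.82 and 5.90 RPM in YH250 1 and DMSO 1, and its libraries numbered 2 were also below 0.1 RPM.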

How the data were processed

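The deposited table holds 1 normalized value per gene and library. Its unit is not stated. Since every deposited column has a minimum of exactly 1 and a common step, it was taken as RPM (reads scaled to a common library total) plus an offset of 1. Per the submitters' processing notes, CASAVA 1.8.2, TopHat2 2.0.8, Partek and mm10 were used, and per the labels' protocols cDNA from an ultra-low-input kit gave 50 bp single-end reads. The annotation and the use of strand are not given in the sources used here. Of the low values (at most 20 reads), 57.2% to 64.7% came within 0.1 of a whole number, which is too few to recover reads, and count models were left out. Exons of 8 members overlap a gene on the other strand, and not all of these overlaps are reported here. Fractional values leave genes with near-identical copies uncertain.

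After subtraction of the offset, genes averaging 1 RPM or more entered the test of log2(RPM + 1) with limma 3.58.1 in R 4.3.3 (trend and robust eBayes) with Benjamini-Hochberg adjustment at 0.05 over 13597 genes. Fold changes of low genes are understated on this scale. YH250 minus DMSO had no covariate; contrasts between replicate numbers had treatment as a covariate. The titles number the libraries 1 to 3 in both groups, and the numbers were taken as pairs with earlier results of these data known. Same-numbered libraries' deviations from their group means correlated at 0.55, 0.26 and 0.70 for numbers 1, 2 and 3. Between different numbers the correlations were -0.55 to 0.14. Deviations from a group mean cancel within the group, so positive same-number values by themselves pull the others down. For number 2 the contrast was small, as YH250 2 correlated at 0.26 with DMSO 2 and at 0.11 with DMSO 1. The p-values of the contrasts between numbers therefore do not test the pairing itself. Positions and merged exon lengths are from GENCODE M21, and symbols matched 40254 of 41128 IDs. The code was tested on simulated data. Alternatives were pseudocount, minimum, scaling, moderation, the replicate block and libraries left out.

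The members and lists were chosen with earlier results of these data known. Values in every library are given for the 8 members of smallest p for YH250 minus DMSO, the 6 for number 3 minus 1, other called members and the most abundant member of each role group.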

Additional observations from a re-analysis of the deposited data

How the results depend on the processing

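No gene was called between YH250 and DMSO under any setting tried. The members' median log2 difference kept its sign, from 0.05 to 0.24. The number of members with a higher mean in YH250 ran from 21 to 28. That median, 0.17 as reported, fell to 0.055 with quantile normalization and to 0.075 with a fixed gene total. Over all genes the median was then -0.009 and -0.073. Members with an unadjusted p under 0.05 were 0 in most settings, 2 with the replicate block, 4 without both libraries of number 3, and 0 to 5 with 1 library left out. Called members for number 3 minus 1, 6 as reported, were 1 with no minimum mean, 2 with no trend and no robust setting, and 2 to 11 with 1 library left out. For number 3 minus 2, 3 as reported, they were 1 with a pseudocount of 0.1, 0 with no minimum mean, 7 with a minimum mean of 5 RPM, 7 with a fixed gene total, 0 with no trend and no robust setting, and 0 to 8 with 1 library left out. For number 2 minus 1 leaving out 1 library gave 0 to 5. The members' median for number 3 minus 1 was -0.27 with quantile normalization and -0.37 with a fixed gene total, and -0.17 to 0.10 with 1 library left out. Gpx7 for YH250 minus DMSO was 0.007 without both libraries of number 2 and so changed sign. The replicate block changed no other call. The causes were not tested, and leaving out libraries changed both the number and the identity of the samples. With 1 library left out of a number, the lone library was assumed to vary like the others. At 21.96 to 31.19 reads per RPM, counting error is largest for Nqo1, Hmox1, Srxn1 and Gpx7.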
